A study of Mus musculus with 8 samples.

Results

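The coagulation and fibrinolysis genes described here are 35 genes of blood clotting, its inhibitors and clot lysis, taken by symbol from a table of 22565 protein-coding genes measured in mouse liver. Of these, 18 were counted as procoagulant and 12 as anticoagulant or fibrinolytic. The remaining 5, namely the fibrinolysis inhibitors Serpinf2 and Cpb2, the vitamin K cycle enzymes Ggcx and Vkorc1 and the adaptor Hrg, were kept apart from both sides. Livers came from male C57BL/6J mice aged 10 weeks that received dexamethasone, a synthetic glucocorticoid, at 1.0 mg/kg by intraperitoneal injection each day for 14 days, or saline on the same schedule. RNA depleted of ribosomal RNA was sequenced in 4 libraries per group, called vehicle 1 to 4 and dexamethasone 1 to 4. No label ties a library to its own mouse, so p-values measure the spread between libraries, which may be technical.

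Clotting runs through a contact and intrinsic pathway, started on surfaces, and an extrinsic pathway, started when tissue factor meets factor VII. Both activate factor X, which with its cofactor factor V turns prothrombin into thrombin, and thrombin turns fibrinogen into fibrin. Antithrombin, the protein C system and protein Z with its inhibitor restrain these steps, and plasmin, made from plasminogen, dissolves fibrin. Hepatocytes make most of the circulating proteins of both sides, while factor VIII, von Willebrand factor and thrombomodulin are known as products of endothelial cells.

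Values are FPKM as computed by the authors, a count of fragments set relative to transcript length and library size. From 1361295 inferred fragments in dexamethasone 4 to 3360083 in vehicle 3 fell on the protein-coding genes of the table. One transcript, Lars2, took 14.5% to 25.3% of the scaled fragments with vehicle and 28.4% to 51.1% with dexamethasone, with the highest share in dexamethasone 4. The median log2 fold change of all 10221 genes tested was -0.28 in the values as deposited and -0.00 after median-ratio scaling, which divides a library by the median of its ratios to a geometric mean over libraries. Every test is therefore given on both scales, and a change is read relative to these medians. The hepatocyte markers Alb, Ttr, Apoa1, Apob, Trf, Ahsg, Cps1 and Hnf4a were present in all libraries. Their summed FPKM, of which Alb was the largest part, was 18086 to 26208 with vehicle and 10096 to 18888 with dexamethasone. Of the 8 markers 0 passed as deposited (limma), where Hnf4a, Cps1 and Apoa1 lay above 0 and the others below, and after scaling Hnf4a and Cps1 were higher (0.92 and 0.73, adjusted p = 0.0107 and 0.00591).

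As deposited, 6 of the 31 members tested fell with dexamethasone and 0 rose, against a background of 7.85% of all genes tested called lower and 1.37% called higher (9.22% either way). The 6 were Klkb1, Kng2, F3, F5, Serpina10 and Serpinf2 (limma, Benjamini-Hochberg adjusted p under 0.05 over all genes tested). A further 10 members had an unadjusted p under 0.05 without passing. That made 16 of the 31 members, where 2799 of all 10221 genes tested had such a p (limma). Among genes at a mean of 10 FPKM or more it was 694 of 1571, and 14 of the 26 members at that level. After median-ratio scaling 4 members fell (Kng2, F3, F5 and Serpina10) and 1 rose (Thbd), against 3.03% called lower and 3.30% called higher (6.33% either way). Among the genes at a mean of 10 FPKM or more, where 26 of the members lie, 17.1% were called lower as deposited and 8.15% after scaling, and of those 26 members 5 and 3 were. The median log2 fold change of the 31 was -0.59 as deposited and -0.18 after scaling, and 29 and 21 of them lay below 0. For the 26 members at a mean of 10 FPKM or more it was -0.64 and -0.23. All genes at that level had medians of -0.39 and -0.00. F3 passed the filter of 0.5 FPKM in at least 4 libraries through the vehicle libraries only, so its entry among the 31 was bound to its difference. Procr, Plat, Plau and F13a1 did not pass the filter and were not tested.

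In FPKM as deposited, dexamethasone 4 was the lowest of all 8 libraries for 27 of the 31 members tested. Dexamethasone 4 also had the lowest FPKM summed over all genes, 155893, and the lowest median-ratio factor, 0.68. The share of all genes lowest in it was not counted, so the 27 are not read as a trait of the members. Without dexamethasone 4, 7 members fell and 1 rose as deposited, and 3 fell and 1 rose after scaling. The same fits called 566 lower and 145 higher over all genes as deposited, and 277 and 281 after scaling. The median log2 fold change without it was -0.31 as deposited and -0.02 after scaling. Leaving out vehicle 3 gave 1 lower member as deposited, leaving out vehicle 1 gave 2, and leaving out vehicle 2 or vehicle 4 gave 3. Calls over all genes dropped as well, from 802 lower to 380 without vehicle 3, 382 without vehicle 1, 337 without vehicle 2 and 694 without vehicle 4. Serpina10 was called in each of these fits. The dexamethasone groups did not overlap the vehicle groups for 12 lower and 1 higher of the 31 members, where 16.2% of all genes tested lay wholly lower and 2.18% wholly higher. After scaling 4 lay wholly lower and 1 wholly higher, against 7.11% and 7.31%.

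**Figure D1:**
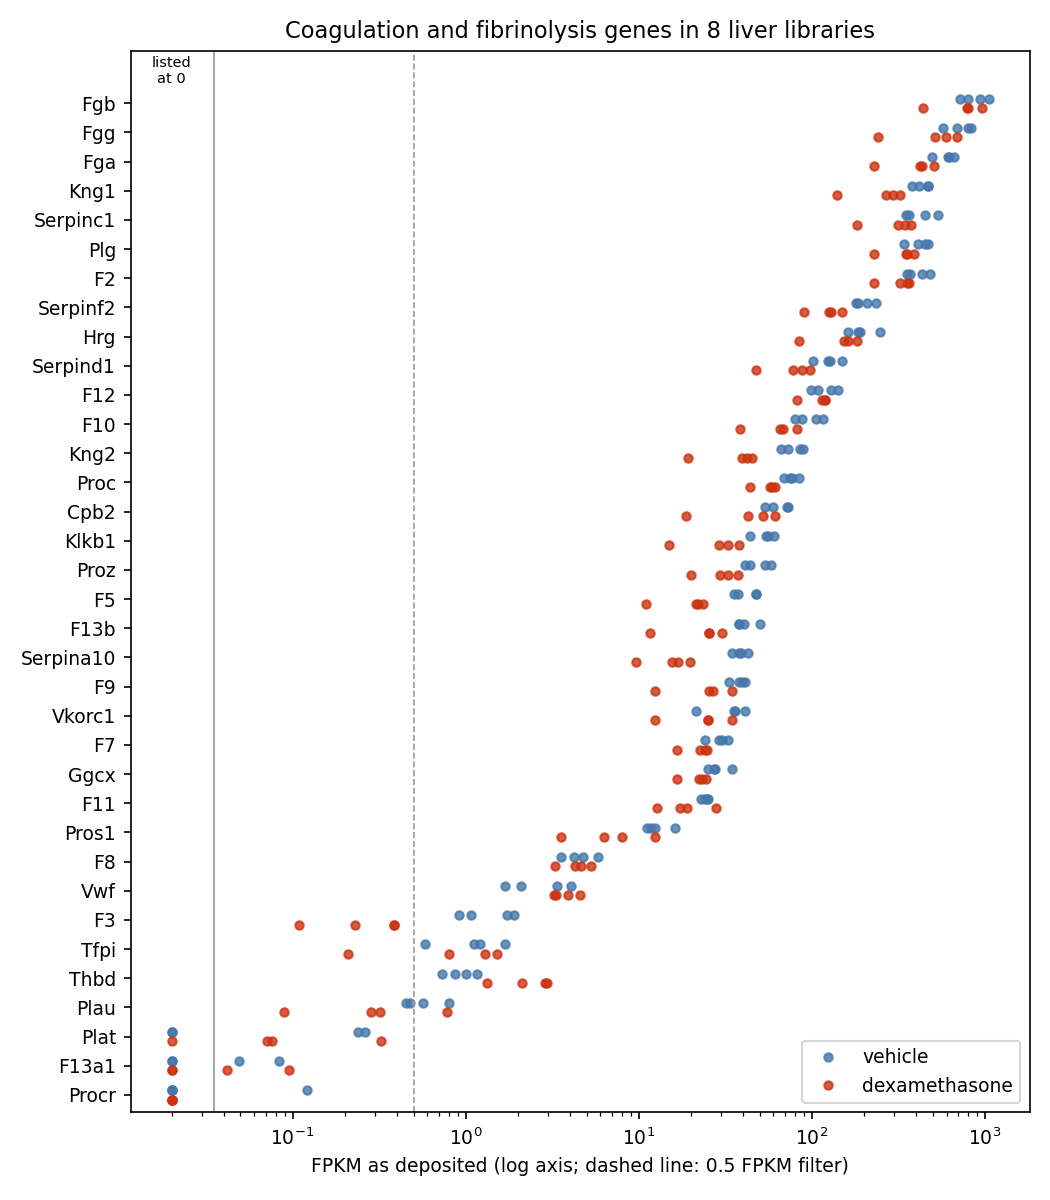
FPKM of the 35 members in each of the 8 libraries on a log axis, ordered by the vehicle mean, with vehicle in blue and dexamethasone in red. Values listed at 0 are drawn at the left edge, and the dashed line marks 0.5 FPKM; the members run from Fgb, with a vehicle mean of 878 FPKM, down to Procr, listed at 0 in 7 libraries.

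In the extrinsic and common pathway F5 fell on both scales. F3 was called lower on both as well, but only genes high enough in 4 libraries were tested and F3 met this through vehicle alone, so its values are given as a description. F3 encodes tissue factor, the membrane receptor that starts the extrinsic pathway, and lies on chromosome 3 from 121723537 to 121735048 on the plus strand (GRCm38, GENCODE M21). It stood at 1.90, 1.74, 1.08 and 0.918 FPKM in vehicle 1 to 4 and at 0.386, 0.109, 0.231 and 0.387 FPKM in dexamethasone 1 to 4. Every dexamethasone library lay below every vehicle library. The mean went from 1.41 ± 0.484 to 0.278 ± 0.134 FPKM (SD, n = 4 libraries). The log2 fold change of FPKM + 1, which understates changes of genes this low, was -0.90 (SE 0.20, limma adjusted p = 0.0145) as deposited and -0.71 (SE 0.18, adjusted p = 0.0396) after scaling. Behind these values stood 10 to 19 inferred fragments per vehicle library and 1 to 4 per dexamethasone library, so a handful of fragments sets them. With any vehicle library left out F3 no longer passed the filter and was not tested.

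F5 encodes factor V, the cofactor of factor X in making thrombin, and lies on chromosome 1 from 164151838 to 164220277 on the plus strand. It was at 47.3, 37.4, 47.4 and 35.4 FPKM with vehicle and at 22.1, 23.4, 21.4 and 10.96 FPKM with dexamethasone. The groups did not overlap, and dexamethasone 4 stood well below the other dexamethasone libraries. The log2 fold change was -1.11 (SE 0.25, limma adjusted p = 0.0156) as deposited and -0.71 (SE 0.17, adjusted p = 0.0289) after scaling. Without vehicle 3 it did not pass as deposited (-1.05, adjusted p = 0.0520), and after scaling it passed in 3 of the 8 fits that left out a library.

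The enzymes of this pathway did not pass on either scale. Prothrombin (F2), the zymogen of thrombin, had a log2 fold change of -0.38 as deposited and 0.03 after scaling (adjusted p = 0.256 and 0.935). Factor VII (F7), the partner of tissue factor, had -0.39 and 0.00 (95% interval -0.35 to 0.36 after scaling). Factor X (F10), where both pathways meet, had -0.64 and -0.24, with adjusted p = 0.110 as deposited. F5 can be set against F10 within a library, which removes any difference in scaling. This ratio and the others given below were chosen with the values of the genes known, and no test was run on them. Several set a called gene against a gene that did not pass, so their separation was partly built in. The share of other gene pairs that separate the groups was not counted. The ratio of F5 to F10 was 0.411 to 0.449 with vehicle and 0.270 to 0.344 with dexamethasone. In the ratio of their scaled fragment counts the groups overlapped, so this separation depended on the measure.

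The bases just before the RefSeq starts of F3 and F5 are shown because these are the members of the pathway called lower on both scales, F3 with the limit given above, that have a RefSeq entry (GRCm38.p6). Each line holds 250 bases that end at the base before the start, 5′ to 3′ on the strand of the gene, and capitals mark GGGCGG or its reverse complement CCGCCC, the core of a GC box. F3 covers chr3:121723287-121723536 on the plus strand and F5 covers chr1:164151585-164151834 on the plus strand.
F3: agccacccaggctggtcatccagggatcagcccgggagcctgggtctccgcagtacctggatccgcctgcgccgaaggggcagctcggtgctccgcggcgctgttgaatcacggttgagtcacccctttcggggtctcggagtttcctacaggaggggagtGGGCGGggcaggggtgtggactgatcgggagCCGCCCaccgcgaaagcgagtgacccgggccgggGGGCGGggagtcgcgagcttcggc
F5: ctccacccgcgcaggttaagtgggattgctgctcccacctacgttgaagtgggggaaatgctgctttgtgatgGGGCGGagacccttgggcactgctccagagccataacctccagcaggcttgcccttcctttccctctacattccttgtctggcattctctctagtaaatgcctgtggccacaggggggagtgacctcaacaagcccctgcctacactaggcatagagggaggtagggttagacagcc

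The F3 window was 70.0% G or C and held 3 such matches, and the F5 window was 57.2% G or C and held 1. The median over 32851 RefSeq promoters of the same length was 52.4% G or C, and 32.7% of them held at least 1 match on either strand. Of the 27 members with an entry 6 held one (22.2%). Neither window held AGAACA or its reverse complement TGTTCT, the half-site that the glucocorticoid receptor binds. That motif was in 16.1% of all promoters and in 7 of the 27 members (25.9%), namely F2, F8, F10, F12, F13b, Fgg and Ggcx. Members were counted by gene, with a match in any entry, and all promoters by entry, so these shares may be in unlike units. These matches are letters in a window and not measured binding.

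In the contact and intrinsic pathway Kng2 fell on both scales, and Klkb1 fell as deposited but did not pass after scaling of FPKM. Kininogen, from which plasma kallikrein releases bradykinin, comes from a pair of neighbouring mouse genes on chromosome 16, Kng2 from 22985854 to 23029482 on the minus strand and Kng1 from 23057865 to 23082078 on the plus strand. Kng2 was at 89.1, 66.0, 85.9 and 72.5 FPKM with vehicle and at 45.0, 42.3, 39.6 and 19.4 FPKM with dexamethasone. All dexamethasone libraries lay below all vehicle libraries, also after scaling. The log2 fold change was -1.14 (SE 0.26, limma adjusted p = 0.0168) as deposited and -0.74 (SE 0.19, adjusted p = 0.0406) after scaling. It did not pass without vehicle 1 or vehicle 3 as deposited (adjusted p = 0.0501 and 0.0526), and after scaling it passed in 2 of 8 fits that left out a library.

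Kng1, the more abundant of the pair at 432 ± 44.6 FPKM with vehicle and 256 ± 80.6 with dexamethasone, did not pass (-0.81, adjusted p = 0.0611; -0.40, adjusted p = 0.224 after scaling). The ratio of Kng2 to Kng1 within a library was 0.175 to 0.190 with vehicle and 0.132 to 0.152 with dexamethasone, without overlap, and the scaled fragment counts gave no overlap either. The annotated transcripts of the pair share 557 stretches of 50 bases, 20.7% of those in Kng2 and 17.2% of those in Kng1. How the authors' counting split such reads is not given in the sources used here.

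Klkb1 encodes prekallikrein, the zymogen of plasma kallikrein, which cleaves kininogen. It was at 60.8, 44.0, 55.7 and 54.7 FPKM with vehicle and at 32.8, 37.9, 29.1 and 14.9 FPKM with dexamethasone. The groups did not overlap as deposited but did after scaling. The log2 fold change was -0.95 (SE 0.27, limma adjusted p = 0.0420) as deposited and -0.55 (SE 0.20, adjusted p = 0.136) after scaling, and it passed in 3 of the 8 fits as deposited that left out a library. With a pseudocount of 0.1 it did not pass (adjusted p = 0.0522), and in the scaled fragment counts with median-ratio scaling it did (-0.53, adjusted p = 0.0447). The identifier that the table pairs with this symbol is named Gm45753 in GENCODE M21 and overlaps the gene that GENCODE names Klkb1 by 25189 bases and Cyp4v3 by 3523 bases, so its value is uncertain.

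The other contact and intrinsic factors did not pass. F12, whose product starts the contact pathway, was at 119 ± 19.7 FPKM with vehicle and 109 ± 18.2 with dexamethasone, with a log2 fold change of -0.13 as deposited and 0.28 after scaling (adjusted p = 0.700 and 0.305). F11, activated by factor XII, lay at -0.36 and 0.03, and F9, the factor lost in human haemophilia B, at -0.67 and -0.28. F11 and Klkb1 are neighbours on chromosome 8. The ratio of Klkb1 to F11 was 2.23 ± 0.275 with vehicle and 1.51 ± 0.406 with dexamethasone, and the groups overlapped.

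The 3 fibrinogen chain genes were the most abundant members, and none passed on either scale. Fgg, Fga and Fgb, which encode the gamma, alpha and beta chains of fibrinogen, lie together on chromosome 3 between 83007724 and 83049863. Fgb was at 1053, 719, 937 and 803 FPKM with vehicle and at 958, 786, 802 and 440 FPKM with dexamethasone. Apart from dexamethasone 4, its dexamethasone values lay within the vehicle range. Its log2 fold change was -0.28 (95% interval -0.81 to 0.26, limma adjusted p = 0.497) as deposited and 0.14 (95% interval -0.27 to 0.54, adjusted p = 0.745) after scaling.

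Fga was at 664, 495, 613 and 617 FPKM with vehicle and at 504, 422, 435 and 227 FPKM with dexamethasone. Fgg was at 829, 571, 794 and 691 FPKM with vehicle and at 685, 593, 512 and 240 FPKM with dexamethasone. Both overlapped between groups, with log2 fold changes of -0.64 and -0.59 as deposited (adjusted p = 0.118 and 0.210) and of -0.23 and -0.18 after scaling (adjusted p = 0.557 and 0.718). The ratios between chains separated the groups where the levels did not. The ratio of Fga to Fgb was 0.631, 0.688, 0.654 and 0.769 in vehicle 1 to 4 and 0.527, 0.537, 0.542 and 0.516 in dexamethasone 1 to 4. The dexamethasone ratios lay in a narrow band below all vehicle ratios, and the ratios of scaled fragment counts separated the groups too.

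The ratio of Fgg to Fgb was 0.787 to 0.861 with vehicle and 0.547 to 0.754 with dexamethasone, separated in FPKM but overlapping in scaled fragment counts. These ratios were chosen with the values of the genes known, and no test was run on them. The chains together made up 1.04 ± 0.130% of the summed FPKM with vehicle and 0.889 ± 0.216% with dexamethasone, with overlap. All 35 members made up 2.49 ± 0.280% and 2.03 ± 0.393% (SD, n = 4 libraries).

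The windows before the starts of Fgg and Fgb are shown because these ratios set the chain genes against Fgb and the windows differ in the motifs they hold. The pair was picked for that difference, and its ratio separated the groups in FPKM only. Capitals mark AGAACA or TGTTCT in Fgg, and GTTAAT or its reverse complement ATTAAC, the half-site of the hepatocyte factor HNF1, in Fgb. Fgg covers chr3:83007474-83007723 on the plus strand and Fgb covers chr3:83049864-83050113 on the minus strand (GRCm38.p6, RefSeq starts).
Fgg: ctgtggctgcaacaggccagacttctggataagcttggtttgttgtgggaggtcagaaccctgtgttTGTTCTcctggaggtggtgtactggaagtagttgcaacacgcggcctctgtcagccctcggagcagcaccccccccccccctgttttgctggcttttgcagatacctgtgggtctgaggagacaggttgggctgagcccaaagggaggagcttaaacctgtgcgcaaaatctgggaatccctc
Fgb: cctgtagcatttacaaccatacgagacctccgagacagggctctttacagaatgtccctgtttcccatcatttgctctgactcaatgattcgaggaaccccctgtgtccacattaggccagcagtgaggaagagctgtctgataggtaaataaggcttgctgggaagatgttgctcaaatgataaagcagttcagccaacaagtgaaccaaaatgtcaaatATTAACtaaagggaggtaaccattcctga

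The HNF1 half-site was in 4 of the 27 members with an entry (14.8%), namely F13b, Fga, Fgb and Proz, and in 6.43% of all promoters. Fga and Fgb both held it, and neither held AGAACA or TGTTCT. A link between these motifs and the ratios was not tested. TATAAA, the TATA box, was in 2 of the 27 (7.41%) and in 12.4% of all promoters. Here too members were counted by gene and all promoters by entry, so the shares may be in unlike units. F13b, the carrier subunit of the fibrin-crosslinking factor XIII, was at 50.4, 38.0, 40.8 and 38.2 FPKM with vehicle and at 30.3, 25.4, 25.5 and 11.6 FPKM with dexamethasone. Its groups did not overlap as deposited, but it did not pass (-0.89, limma adjusted p = 0.0550; -0.50, adjusted p = 0.183 after scaling). The catalytic subunit F13a1 stayed at or under 0.0956 FPKM in every library.

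**Figure D2:**
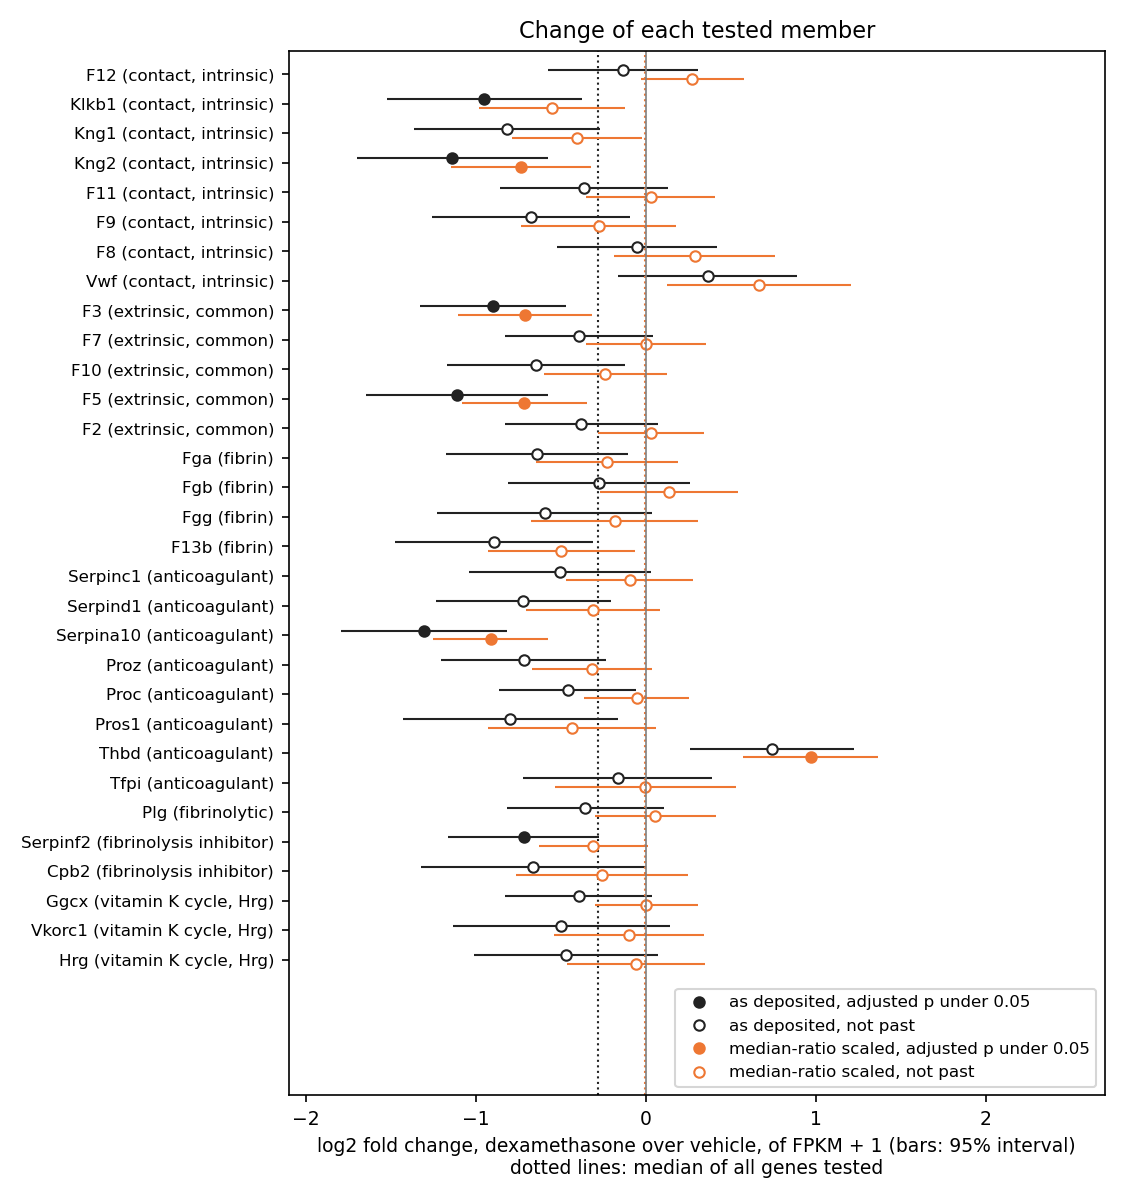
Log2 fold change of FPKM + 1, dexamethasone over vehicle, for each of the 31 members tested, as deposited (black) and after median-ratio scaling (orange). Bars are 95% intervals, filled points passed the test and dotted lines mark the median of all genes, -0.28 and -0.00; Serpina10 lies furthest left at -1.31 and Thbd furthest right at 0.74 as deposited.

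Among the anticoagulant genes Serpina10 fell on both scales and in every fit that left out a library. Serpina10 encodes the protein Z-dependent protease inhibitor, which blocks activated factor X with protein Z as its cofactor, and lies on chromosome 12 from 103614786 to 103631444 on the minus strand. It was at 39.1, 38.0, 43.0 and 34.6 FPKM with vehicle and at 19.8, 16.9, 15.5 and 9.65 FPKM with dexamethasone. No dexamethasone library came near the vehicle libraries. The log2 fold change was -1.31 (SE 0.23, limma adjusted p = 0.00414) as deposited and -0.91 (SE 0.15, adjusted p = 0.00474) after scaling.

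Its cofactor gene Proz, on chromosome 8 beside F7 and F10, was at 57.9, 43.8, 53.5 and 40.9 FPKM with vehicle and at 37.2, 29.5, 32.7 and 20.1 FPKM with dexamethasone. The groups did not overlap, but Proz did not pass (-0.72, limma adjusted p = 0.0631; -0.32, adjusted p = 0.313 after scaling). The ratio of Serpina10 to Proz was 0.676, 0.868, 0.802 and 0.846 with vehicle and 0.532, 0.574, 0.475 and 0.481 with dexamethasone. All dexamethasone ratios lay below all vehicle ratios, in scaled fragment counts as well.

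Thbd stood apart from the other anticoagulant genes in its direction. It encodes thrombomodulin, the endothelial receptor that turns thrombin toward activating protein C, and lies on chromosome 2 from 148404466 to 148408188 on the minus strand. It was at 1.16, 0.872, 1.00 and 0.728 FPKM with vehicle and at 2.11, 2.85, 2.95 and 1.33 FPKM with dexamethasone. All dexamethasone libraries lay above all vehicle libraries, with 14 to 27 inferred fragments per vehicle library and 17 to 54 per dexamethasone library. Thbd rose after scaling (log2 fold change 0.97, SE 0.18, limma adjusted p = 0.00858), and as deposited it did not pass (0.74, SE 0.22, adjusted p = 0.0534). Without dexamethasone 4 it passed as deposited (0.90, adjusted p = 0.0226), and after scaling it passed in all 8 fits that left out a library.

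Proc encodes protein C, which thrombomodulin helps to activate. It was at 76.0 ± 6.19 FPKM with vehicle and 55.3 ± 7.76 with dexamethasone and did not pass (-0.46, limma adjusted p = 0.136; -0.05, adjusted p = 0.884 after scaling). The ratio of Thbd to Proc was 0.00975 to 0.0152 with vehicle and 0.0303 to 0.0512 with dexamethasone, without overlap. Procr, the endothelial protein C receptor, was listed at 0 in 7 of 8 libraries, with 1 inferred fragment in vehicle 1. Protein S (Pros1), the cofactor of activated protein C, lay at -0.80 and -0.43 and did not pass.

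The main plasma inhibitors of thrombin did not pass either. Serpinc1, antithrombin, was at 424 ± 84.4 FPKM with vehicle and 305 ± 84.8 with dexamethasone (-0.51, limma adjusted p = 0.207; -0.09, adjusted p = 0.822 after scaling). Its ratio to F2, the gene of the protease it inhibits, was 1.03 ± 0.0555 with vehicle and 0.946 ± 0.10 with dexamethasone, with overlap. Serpind1, heparin cofactor II, lay at -0.72 and -0.31, and Tfpi, the inhibitor of tissue factor and factor VII, at -0.16 and -0.00. Serpind1 lies wholly inside Pi4ka on the opposite strand, and whether the counting used strand is not given in the sources used here. Serpinc1, Plg and F8 overlap genes on the opposite strand by 2942, 426 and 217 bases, and the same limit holds for them.

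F8, Vwf, Thbd and Tfpi are the tested members known mainly as endothelial products. Their median log2 fold change was 0.16 as deposited and 0.48 after scaling, and of the 4 only Thbd passed, after scaling alone. Vwf, the carrier of factor VIII, was at 1.68, 2.08, 4.04 and 3.36 FPKM with vehicle and at 3.91, 3.32, 4.56 and 3.24 FPKM with dexamethasone. The groups overlapped and the change did not pass (0.36, limma adjusted p = 0.354; 0.67, adjusted p = 0.151 after scaling). F8 lay at -0.05 and 0.29.

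Of 8 sinusoidal endothelial markers tested, 1 was called higher as deposited (Lyve1) and 3 after scaling (Lyve1, Stab1 and Oit3), and 0 were called lower. As deposited Lyve1, Stab1 and Oit3 lay above 0, and Fcgr2b, Mrc1, Clec4g, Stab2 and Gpr182 lay below. Fcgr2b, Mrc1 and Clec4g were wholly lower with dexamethasone and Oit3 wholly higher, without passing. The median log2 fold change of the 8 was -0.17 as deposited and 0.14 after scaling. The summed FPKM of the 8 was 57.8 to 76.5 with vehicle and 48.4 to 81.3 with dexamethasone. Of 7 vascular endothelial markers tested, Kdr was lower as deposited and Egfl7 higher after scaling, and their sum was 42.2 to 55.3 with vehicle and 35.9 to 53.9 with dexamethasone. Of the 2 platelet markers tested, Itgb3 was higher on both scales. Itga2b went the other way, at -0.91 and -0.67, and did not pass (limma adjusted p = 0.0751 and 0.235). Gp9 was at 0 in all libraries. The 6 platelet markers summed to 3.01 to 5.99 FPKM with vehicle and 2.62 to 7.60 with dexamethasone. In bulk liver, a change in the number of endothelial cells and a change in RNA per cell cannot be told apart. The part of these markers in the Thbd values was not tested.

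**Figure D3:**
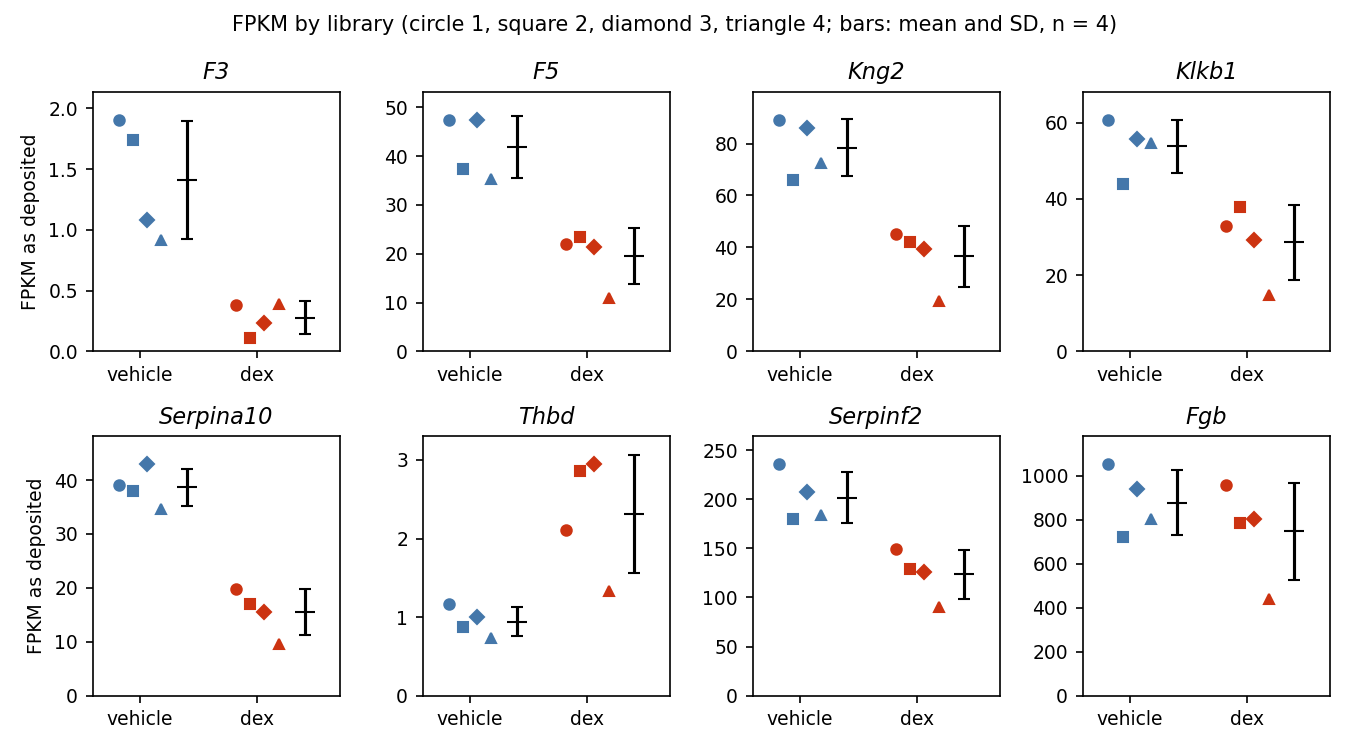
FPKM as deposited in each library for 8 members (vehicle blue, dexamethasone red; circle, square, diamond and triangle are libraries 1 to 4; bars are mean and SD, n = 4). F3, F5, Kng2, Klkb1, Serpina10 and Serpinf2 lie lower in all dexamethasone libraries, Thbd higher in all, and Fgb overlaps.

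On the fibrinolytic side Plg, which encodes plasminogen, was the one member that could be tested. It was at 468, 343, 450 and 410 FPKM with vehicle and at 387, 350, 355 and 228 FPKM with dexamethasone. The groups overlapped, and the log2 fold change of -0.36 as deposited and 0.06 after scaling did not pass (limma adjusted p = 0.299 and 0.894). The plasminogen activators Plat and Plau, of tissue and urokinase type, had at most 5 and 10 inferred fragments per library.

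Serpinf2 encodes alpha-2-antiplasmin, the fast inhibitor of plasmin, on chromosome 11 from 75431732 to 75439591 on the minus strand. It was at 236, 179, 208 and 184 FPKM with vehicle and at 149, 129, 126 and 90.0 FPKM with dexamethasone. It fell as deposited, without overlap (-0.72, SE 0.21, limma adjusted p = 0.0455), and after scaling the groups overlapped and it did not pass (-0.31, SE 0.15, adjusted p = 0.266). It passed in 2 of 8 fits as deposited that left out a library. The ratio of Plg to Serpinf2 was 1.99, 1.91, 2.16 and 2.23 with vehicle and 2.60, 2.72, 2.82 and 2.54 with dexamethasone. Plg RNA stood higher relative to Serpinf2 RNA in all dexamethasone libraries, in scaled fragment counts as well. The pair was chosen with Serpinf2 known to be lower as deposited, so the separation is a description only. Cpb2, which trims fibrin so that plasminogen binds less, lay at -0.66 and -0.26 and did not pass.

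**Figure D4:**
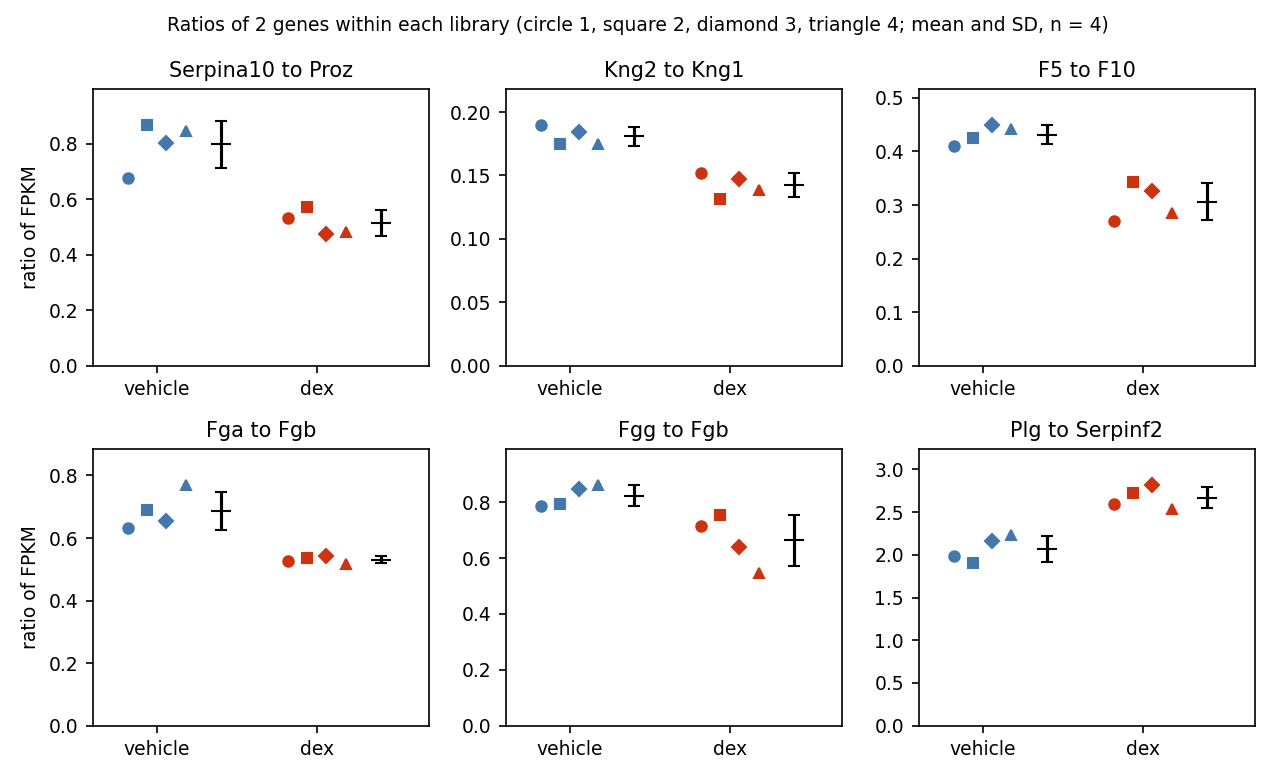
Ratio of FPKM of 2 genes within each library (symbols and colours as for the plot of FPKM by library; bars are mean and SD, n = 4), which no scaling between libraries can alter. Plg to Serpinf2 went from 2.07 ± 0.150 to 2.67 ± 0.125 and Serpina10 to Proz from 0.798 ± 0.0858 to 0.515 ± 0.0466. The pairs were chosen with the values of the genes known, and no test was run on them.

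The 7 vitamin K-dependent proteins F2, F7, F9, F10, Proc, Pros1 and Proz need carboxylation by Ggcx, which Vkorc1 supplies with reduced vitamin K. Of these 7 genes 0 passed on either scale (limma), with 5 at an unadjusted p under 0.05 as deposited and 0 after scaling. Over all 10221 genes tested 2799 had such a p as deposited and 2064 after scaling. Among genes at a mean of 10 FPKM or more, a level that all 7 reached, it was 694 and 576 of 1571. The median log2 fold change of the 7 genes was -0.64 as deposited and -0.24 after scaling. Ggcx lay at -0.39 and 0.00 and Vkorc1 at -0.50 and -0.10. Of the 50-base stretches of Vkorc1 44.7% are shared with the overlapping gene Gm21974, so its level is uncertain. Hrg, a plasma protein that binds heparin and plasminogen, lay at -0.47 and -0.06.

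Set side by side, the procoagulant and the opposing genes had close medians. Of 17 procoagulant members tested 4 fell as deposited and 3 after scaling, F3 among them on both scales, with medians of -0.64 and -0.23. Of 9 anticoagulant or fibrinolytic members tested 1 fell on each scale, and 1 rose after scaling, with medians of -0.51 and -0.09. Over all genes tested 7.85% were lower as deposited, and 3.03% were lower and 3.30% higher after scaling. The difference of the medians was -0.13 on both scales, -0.066 with quantile normalization and -0.0055 with the scaled fragment counts. With single libraries left out it ran from -0.19 to -0.035 as deposited and from -0.19 to -0.020 after scaling, nearest to 0 without dexamethasone 4 and without vehicle 1, respectively. Within a library, the mean log2(FPKM + 1) of the procoagulant members exceeded that of the opposing members by 0.73 to 0.84 with vehicle and by 0.58 to 0.79 with dexamethasone, and the groups overlapped. No test was run on these scores, since the members were chosen with results known.

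A list of 35 other genes of the pathway, 29 of them tested, was described in the same fit. As deposited 2 were higher and 4 lower, against 1.37% and 7.85% of all genes tested, and after scaling 4 were higher and 1 was lower, against 3.30% and 3.03%. Serpine2 and Fgl1 passed on both scales. Serpina5, also counted as higher, was admitted to the test through its dexamethasone libraries only, so it is given as a description. Serpine2 encodes protease nexin-1, an inhibitor of thrombin and of plasminogen activators, on chromosome 1 from 79794197 to 79861180 on the minus strand. It was at 2.27, 2.65, 2.79 and 1.78 FPKM with vehicle and at 26.5, 17.0, 20.5 and 15.6 FPKM with dexamethasone. The lowest dexamethasone library lay far above the highest vehicle library, with a log2 fold change of 2.61 (SE 0.22, limma adjusted p = 1.89e-05) as deposited and 2.95 (adjusted p = 3.3e-06) after scaling.

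Serpina5 encodes the protein C inhibitor, a plasma protein in humans, on chromosome 12 from 104101113 to 104106137 on the plus strand. It was at 0.0971, 0, 0.130 and 0.175 FPKM with vehicle and at 3.63, 1.49, 3.29 and 2.04 FPKM with dexamethasone. The vehicle libraries held 0 to 2 inferred fragments and the dexamethasone libraries 14 to 41, and the gene passed the filter through the dexamethasone libraries only. It stood higher by 1.67 on the log2(FPKM + 1) scale, and by 1.82 after scaling. The limma adjusted p-values, 0.000905 and 0.000834, are not read as evidence, since that difference admitted the gene to the test. With any dexamethasone library left out it did not pass the filter.

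Fgl1, a fibrinogen-like protein secreted by hepatocytes that is not itself a precursor of fibrin, lies on chromosome 8 from 41191434 to 41215156 on the minus strand. It was at 81.5, 60.5, 80.8 and 80.6 FPKM with vehicle and at 24.2, 32.7, 21.3 and 7.77 FPKM with dexamethasone. It fell without overlap, by a log2 fold change of -1.92 (SE 0.34, limma adjusted p = 0.00458) as deposited and -1.52 (adjusted p = 0.00713) after scaling. Hgfac, Gas6 and Pzp were lower as deposited only (-0.75, -0.70 and -1.05), and Mcfd2 and Furin were higher after scaling only (0.74 and 0.75), all named after their values were seen. Mcfd2 is part of the cargo receptor that carries factors V and VIII out of the endoplasmic reticulum, and Furin cleaves the propeptides of several clotting factors.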

How the data were processed

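The submitters' processing notes name CASAVA 1.8, TopHat2 and build hg19, although the rows are mouse genes. The counting tool, its strand setting and the FPKM denominator are not given in the sources used here. Per the file headers, the authors deposited FPKM and a count per library. The deposited counts were treated as a signal, since 93.2% to 95.4% of low values were whole multiples (tolerance 0.01) of 1 step per library. Values divided by that step are called inferred fragments, and no count test was run.

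Here limma 3.58.1 in R 4.3.3 (lmFit, eBayes with trend) compared the treatments on log2(FPKM + 1) with no other term. It covered the 10221 genes that reached 0.5 FPKM in 4 or more libraries. Two-sided p-values were given Benjamini-Hochberg adjustment over all 10221 and a threshold of 0.05. All 35 members matched GENCODE M21 (GRCm38) on chromosome and strand, and coordinates are GENCODE's. The deposited locus equalled GENCODE's for 13 of the 35 and contained the GENCODE gene for 21. The gene models counted can thus differ from the coordinates given. All members are named. Of the other pathway genes, those that passed on both scales are named, at most 8. Replicate numbers were not taken as pairs: 0 of 4 same-numbered pairs correlated above 0.1 after group means were removed. Data were simulated on 10221 genes from the means and spreads after median-ratio scaling, with genes independent and the lowest genes left unchanged. Recovery was 59% for log2 changes of 1 and 97% for log2 changes of 2, with 11 of 10021 unchanged genes called. Standard errors could be larger as deposited, as for F5 (0.25 against 0.17 after scaling), and recovery on that scale was not measured. Alternatives were pseudocounts of 0.1 and 0.5, other filters, median-ratio and quantile scaling, robust eBayes, the scaled counts, the replicate number as a term and each library left out. Members and lists were chosen with earlier results of these data known. Promoters were matched to RefSeq by symbol for 27 members.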

Additional observations from a re-analysis of the deposited data

Results flagged for a closer look

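In groups of 4 libraries, a value was singled out where its gap to the nearest library, divided by the range of the group, was above Dixon's 95% critical value. Of 88 groups examined 3 met it, and chance gives about 1 in 20. F12 was at 81.9 FPKM in dexamethasone 4, against 114 to 120 FPKM in the other dexamethasone libraries. F5 was at 10.96 FPKM in dexamethasone 4, against 21.4 to 23.4 FPKM in the others. Dexamethasone 4 also had the fewest inferred fragments, 1361295, and the highest Lars2 share, 51.1%, and the part of these in the values was not tested. Procr was at 0.121 FPKM in vehicle 1 and at 0 in the other vehicle libraries, which is 1 inferred fragment.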

How the results depend on the processing

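Serpina10, Serpine2 and Fgl1 passed under every alternative run. Serpina5 passed wherever it was tested, but except with no filter its entry was bound to its difference. Its calls are therefore not read as a check on it. Klkb1 and Serpinf2 did not pass with no filter (adjusted p = 0.0868 and 0.0698), where F3 passed (0.0317). Klkb1 did not pass with a pseudocount of 0.1 (0.0522) but did with the scaled counts (0.0447). F3 was not tested with a filter of 1 FPKM. The difference of the procoagulant and opposing medians ran from -0.21 with no filter to -0.0055 with the scaled counts. Under the alternatives that rescale libraries the median shift of all genes goes to about 0. Genes named below with a changed sign did not pass on either scale. Low genes are limited by depth, and inferred fragments and their spread cover counting error only.

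Over all genes tested, median-ratio scaling gave 337 higher and 310 lower, quantile normalization 335 and 335, the scaled counts with median-ratio scaling 539 and 539, and no filter 113 and 487. Among members, 1 was higher with median-ratio scaling, a filter of 1 FPKM or quantile normalization, and 2 were higher (Thbd and Vwf) with the scaled counts. Of the other pathway genes, 4 were higher and 1 lower with median-ratio scaling, 4 and 2 with quantile normalization and 5 and 1 with the scaled counts, and 2 were lower with no filter. The median log2 fold changes of all members, of procoagulant members and of anticoagulant or fibrinolytic members were -0.18, -0.23 and -0.094 with median-ratio scaling, -0.14, -0.20 and -0.13 with quantile normalization, and -0.14, -0.14 and -0.14 with the scaled counts.

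Changed signs came with median-ratio scaling for F12 (0.28), F11 (0.028), F8 (0.29), F7 (0.0023), F2 (0.032), Fgb (0.14), Plg (0.056) and Ggcx (0.0032). With quantile normalization they were F12 (0.25), F11 (0.010), F8 (0.26), F2 (0.0043), Tfpi (0.044), Plg (0.030) and Ggcx (0.0032). With the scaled counts they were F12 (0.18), F11 (0.057), Fgb (0.095) and Ggcx (0.041).

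The replicate number as a block, which has no basis in the labels, gave 8 lower members (F13b and Proz added), of which 2 were anticoagulant or fibrinolytic. The replicate block with median-ratio scaling gave 243 higher and 192 lower over all genes, 1 higher and 1 lower member, 0 lower procoagulant members, and 5 higher and 1 lower of the other pathway genes. The block leaves fold changes as they are, so its medians were -0.18, -0.23 and -0.094, and its changed signs F12 (0.28), F11 (0.028), F8 (0.29), F7 (0.0023), F2 (0.032), Fgb (0.14), Plg (0.056) and Ggcx (0.0032). No vehicle library was best matched to the dexamethasone library of its own number (0 of 4).

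With each library left out in turn, as deposited or after median-ratio scaling, the numbers ran from 81 to 281 higher and 170 to 872 lower over all genes, 0 to 1 higher and 1 to 7 lower among members, 0 to 5 lower procoagulant, 1 to 2 lower anticoagulant or fibrinolytic, and 1 to 3 higher and 1 to 3 lower of the other pathway genes. The median log2 fold changes ran from -0.77 to -0.022 for members, -0.77 to -0.098 for procoagulant and -0.62 to -0.064 for anticoagulant or fibrinolytic members. Over these fits F12 ran from -0.22 to 0.34, F11 from -0.55 to 0.097, F8 from -0.15 to 0.40, F7 from -0.48 to 0.073, F2 from -0.45 to 0.087, Fgb from -0.41 to 0.25 and Fgg from -0.77 to 0.024. Serpinc1 ran from -0.62 to 0.015, Proc from -0.51 to 0.012, Tfpi from -0.30 to 0.20, Plg from -0.45 to 0.12, Ggcx from -0.45 to 0.070, Vkorc1 from -0.69 to 0.067 and Hrg from -0.60 to 0.063. The ratios of scaled fragment counts, added after seeing the data, kept the direction of all 9 ratios computed. The cause of these differences was not tested.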
